A study of Mus musculus with 18 samples.

Results

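The cytosolic ribosomal protein genes encode the protein shell of the ribosome that translates nuclear-encoded messenger RNAs. They were taken here as every table row whose symbol is Rpl or Rps followed by a number and at most a single letter a, x, l or y, together with Rplp0, Rplp1, Rplp2 and Rpsa, leaving out rows marked as pseudogenes and the Rps6k kinases. This gave 77 of 18329 genes in the table of acutely treated leukemias and 79 of 18953 genes in the table of leukemias followed for survival. The extra pair in the survival table, Rpl32l and Rpl6l, is annotated as processed pseudogenes and reached at most 8.38 and 11.5 normalized counts in any library, so it stayed below the filter on low values. The other 77 members, 46 of the large subunit (60S) and 31 of the small subunit (40S), passed that filter in both tables and are annotated as protein coding. Their names fit their annotation, but a few ribosomal genes named otherwise (among them Rack1, Fau, Rps3a1, Rpl36al, Rpl7l1 and Rpl22l1) fall outside the rule and are described separately.

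The study sequenced RNA of mouse T-cell acute lymphoblastic leukemia (T-ALL), an aggressive cancer of thymocyte precursors, in which the gene Acly could be deleted by tamoxifen. The product of Acly, ATP-citrate lyase, makes acetyl-CoA from citrate in the cytosol. All 18 libraries came from leukemic spleens of sublethally irradiated C57BL/6 recipients of conditional Acly knockout T-ALL cells, so that the conditional allele was shared by every group. KO acute (n = 4) were overtly leukemic mice given tamoxifen (3 mg per mouse) and collected 48 h later, and WT acute (n = 4) were their corn oil controls. KO survival first wave (n = 3) and KO survival second wave (n = 3) came from mice given the same tamoxifen dose 48 h after transplantation and collected at humane endpoint, and WT survival (n = 4) from the corn oil controls of that experiment. The labels call the corn oil groups WT and do not define the waves. The sources used here do not name the Cre driver, the deleted exons or the animals' age. They also do not say whether replicates derive from separate leukemias, so p-values measure the spread between these libraries only. Deletion of Acly and exposure to tamoxifen cannot be told apart in this design.

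Each ribosome carries a single copy of nearly every ribosomal protein, and an unincorporated protein is rapidly degraded. Their messenger RNAs are short and abundant and begin with a terminal oligopyrimidine (TOP) tract, through which mTORC1 and LARP1 control their translation and stability. Several of these genes also host small nucleolar RNAs (snoRNAs), which guide the chemical modification of ribosomal RNA. In human T-ALL, RPL5, RPL10, RPL11 and RPL22 are recurrently mutated or deleted, and in thymocytes Rpl22 and the RPL5-RPL11 particle are tied to p53 control.

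Among the 77 measured members, 22 have a snoRNA annotated inside an exon of at least 1 of their own transcripts, 7 have snoRNAs in introns only and 48 have none (GENCODE M21, GRCm38). No snoRNA has a row of its own in either table. Host transcripts that span a snoRNA contain its sequence, so the value of such a member may include snoRNA reads and need not be its messenger RNA level; this was not tested. Rps12, the member with the highest value, carries 3 such snoRNAs, each spanned by 1 or 2 of its transcripts, and Rplp2, the stalk protein with the highest fold change, carries 1. Their sequences are shown because the acute values of the members are also described by this annotation. Capitals mark the C box and D box of the C/D type and the ACA box of the H/ACA type. Snora33 lies at chr10:23785347-23785475, Snord100 at chr10:23785750-23785823 and Gm23130 at chr10:23786470-23786543, all on the minus strand within Rps12, and Snora52 lies at chr7:141448803-141448939 on the plus strand within Rplp2.
Snora33: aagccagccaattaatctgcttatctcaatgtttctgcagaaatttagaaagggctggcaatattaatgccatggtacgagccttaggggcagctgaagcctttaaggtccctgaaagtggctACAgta
Snord100: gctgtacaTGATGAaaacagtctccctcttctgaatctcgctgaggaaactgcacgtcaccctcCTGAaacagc
Gm23130: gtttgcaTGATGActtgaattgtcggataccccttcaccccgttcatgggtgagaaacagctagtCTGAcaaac
Snora52: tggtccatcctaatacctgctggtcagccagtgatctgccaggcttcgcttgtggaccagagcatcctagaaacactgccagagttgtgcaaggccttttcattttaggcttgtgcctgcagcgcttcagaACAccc

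Promoter sequences were searched for 3 motifs. RefSeq promoters of 300 bases (GRCm38.p6) were found for 57 of the 77 members. The motif CCGGAAG, the core bound by ETS factors such as GABPA, was present on either strand in 24 of them (42.1%), against 9.9% of 26968 other genes. The other genes were all others with a RefSeq promoter, measured here or not, and were not matched to the members in expression. AAGATGGC, a core of the YY1 motif that can overlap the end of CCGGAAG by its AAG, was found on either strand in 8.8% of members' promoters, against 3.2% of other genes. The run CTTTCC on the gene's own strand, as in a TOP tract, was found in 42.1% of members' promoters and in 16.0% of other genes. Among members whose expression fell in the acute comparison 8 of 18 held CCGGAAG, and among those not past the threshold 16 of 38 held it. A match is a description of the letters only. Windows of 60 bases upstream of the RefSeq start are shown for 2 members that fell, Rpl15 (chr14:18271014-18271073, minus strand) and Rps25 (chr9:44407616-44407675, plus strand), and for Rplp2 (chr7:141447518-141447577, plus strand), which did not. These windows lie inside the GENCODE M21 spans of their genes. Each is written along the gene's own strand, with the motif, or in Rplp2 its reverse complement, in capitals.
Rpl15: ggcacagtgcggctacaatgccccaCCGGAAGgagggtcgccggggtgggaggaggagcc
Rps25: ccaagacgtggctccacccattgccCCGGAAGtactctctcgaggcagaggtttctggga
Rplp2: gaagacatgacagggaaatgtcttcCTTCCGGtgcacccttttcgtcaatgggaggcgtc

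Values are normalized counts, which summed to between 7067041 and 10386517 per library. Acly fell in the KO libraries as labelled. It had 793, 804, 717 and 619.6 normalized counts in KO acute libraries, against 1422, 1129, 1231 and 1241 in WT acute libraries (log2 fold change -0.78, limma adjusted p = 0.00266). At endpoint Acly had 725, 656 and 799.6 normalized counts in first wave, 505, 569 and 655 in second wave, and 1722, 1727, 1854 and 1486 in WT survival libraries. The first wave difference did not pass the limma threshold (log2 fold change -1.22, adjusted p = 0.0562), while the second wave difference did (-1.56, adjusted p = 0.00155). Every KO library lay below every WT library of its table, and the exact two-sided permutation p was 0.0286 for each KO group, the smallest these group sizes allow. All 15 thymocyte and T-ALL markers, among them Cd3e, Lck, Rag1 and Dntt, were above 0 in every library. KO acute libraries 1 and 2 stood apart from the other KO acute pair in their mitochondrially encoded share, 4.80% and 5.27% against 2.35% and 2.70%, with 3.50% to 3.69% in WT acute libraries.

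The first comparison asked how the ribosomal protein genes stood 48 h after tamoxifen in established leukemia. Many of them fell: of the 77 members, 26 were lower and 1 was higher in KO acute than in WT acute spleens (limma on log2 of the value plus 1, Benjamini-Hochberg adjusted p under 0.05 over all genes tested). Over all 14184 genes tested, 8.07% were called lower and 4.58% higher. The median log2 fold change was -0.31 over the members and 0.03 over all genes, and 58 of the 77 members had a negative fold change. The groups did not overlap, with KO lower, for 25 members, against 11.0% of all genes, and with KO higher for 1 member, against 8.04%. In bulk spleen RNA, fewer cells of a type and less RNA per cell cannot be told apart. Removing a per-library trend over transcript length, GC content and abundance left 13 members lower and 5 higher and a member median of -0.049, and 13 members lower and 0 higher were called without KO acute libraries 1 and 2. With no variance trend in the fit 11 were lower and 1 higher, and without WT acute replicate 4 there were 17 lower and 0 higher.

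**Figure D1:**
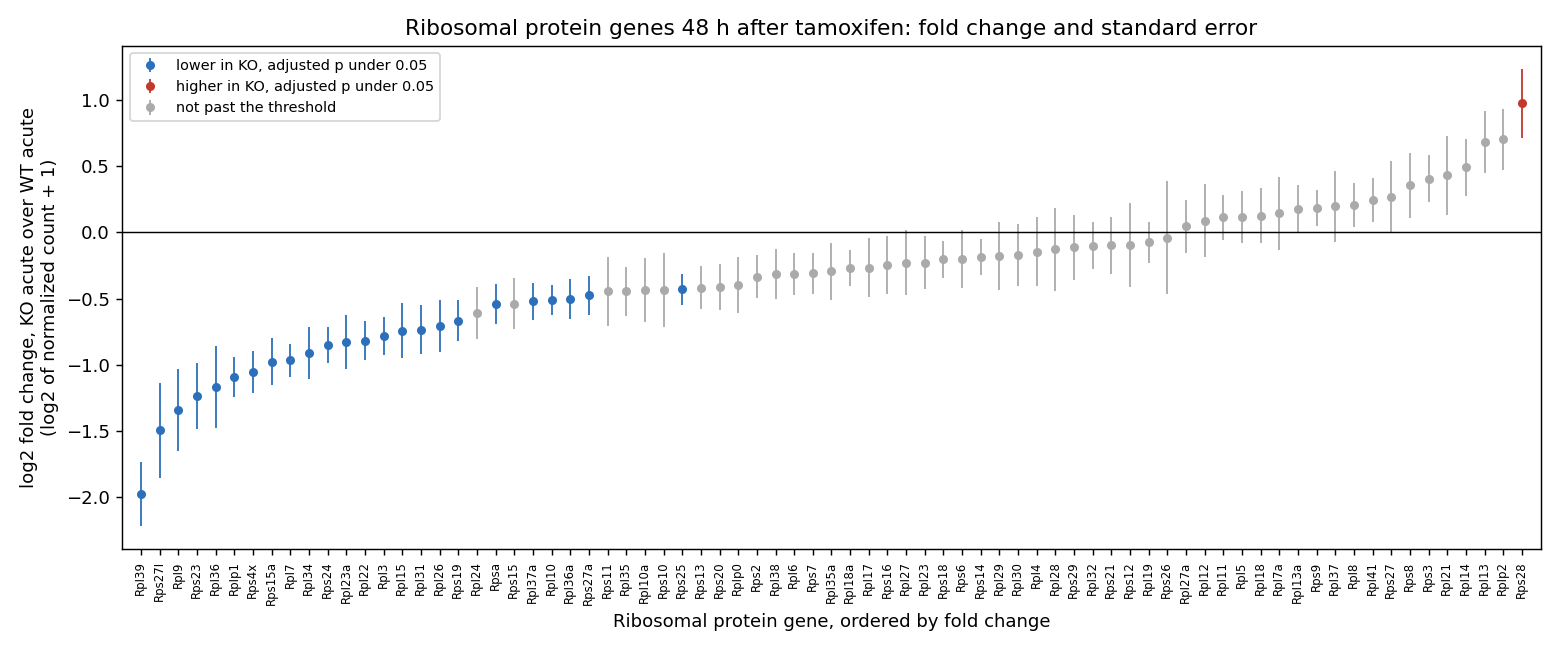
Log2 fold change (KO acute over WT acute, log2 of normalized count plus 1) with its standard error for 75 of the 77 members, ordered by fold change (n = 4 libraries each). Rpl39 is lowest at -1.98 and Rps28 highest at 0.98, and 24 of the members drawn are marked as lower and 1 as higher.

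The largest fall was that of Rpl39, a small protein lining the exit of the peptide tunnel, encoded on chromosome X (chr X, 37082520 to 37085402, minus strand). Rpl39 had 769.9, 639.5, 1474 and 1287 normalized counts in KO acute libraries, against 2680, 4232, 4436 and 4476 in WT acute libraries. Even the highest KO library lay well under the lowest WT library. The log2 fold change was -1.98 (SE 0.24, adjusted p = 0.000947), a level 25.4% of that in WT. Its part of the ribosome, the tunnel and its exit, held 9 members, all of them with a negative fold change (median -0.71). Of these 9, 5 fell: Rpl39, Rpl23a (-0.83) at the docking site of the signal recognition particle, Rpl22 (-0.82), Rpl31 (-0.74) and Rpl26 (-0.71). Of all genes tested, 8.07% were lower, and 58 of all 77 members had a negative fold change (median -0.31). Over 18 alternatives, of which 8 each left out 1 library, the Rpl26 call was lost in 11, among them 6 of the left-out libraries (adjusted p up to 0.0914 there), the Rpl31 call in 5 and the Rpl23a call in 3. Rpl4, Rpl17, Rpl19 and Rpl35 did not pass the threshold, at -0.14, -0.27, -0.08 and -0.44.

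Rpl22, which is dispensable for most translation and is lost in a fraction of human T-ALL, had 509, 499.5, 716 and 679 normalized counts in KO acute libraries, against 1146, 1048, 1053 and 946 in WT acute libraries, with no overlap (adjusted p = 0.00396). Rpl10, a late-joining protein near the peptidyl transferase centre, had 729, 810.0, 823 and 845 in KO acute libraries, against 1210, 1065, 1153 and 1145 in WT acute libraries. These groups did not overlap either, and the log2 fold change was -0.51 (adjusted p = 0.0111). The 5S particle, Rpl5 and Rpl11, which binds MDM2 when ribosome assembly stalls, did not pass the threshold. Rpl5 had 3685, 2929, 1795 and 2159 normalized counts in KO acute libraries, against 2362, 1830 (replicate 2), 2543 and 2751 in WT acute libraries. The log2 fold changes were 0.12 (SE 0.20) for Rpl5 and 0.11 (SE 0.17) for Rpl11, both within the spread of the libraries.

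The acidic stalk recruits translation factors and is built from Rplp0, Rplp1, Rplp2 and Rpl12. Of these 4 members 1 fell, beside 8.07% of all genes tested. Rplp1 had 485, 613, 697 and 794 normalized counts in KO acute libraries, against 1496, 1260 (replicate 2), 1409 and 1289 in WT acute libraries, with a log2 fold change of -1.09 (SE 0.15, adjusted p = 0.00112). Its dimer partner Rplp2 had 647, 934, 377 and 514 in KO acute libraries, against 386, 326, 328 and 402 in WT acute libraries. Rplp1 fell without overlap, while Rplp2 lay above WT in KO libraries 1, 2 and 4 and within the WT range in KO library 3 (log2 fold change 0.70, SE 0.23, adjusted p = 0.0591). Rplp2 passed the threshold, as higher, in 4 of the alternatives tried, and its fold change was 0.29 without KO acute libraries 1 and 2. Rplp0, the stalk base, and Rpl12 did not pass, with log2 fold changes of -0.40 and 0.09.

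Of the other 31 proteins of the large subunit, 9 fell and none rose (median -0.23), beside 8.07% lower and 4.58% higher over all genes. They were Rpl9 (-1.34), Rpl36 (-1.17), Rpl7 (-0.97), Rpl34 (-0.92), Rpl3 (-0.78), Rpl15 (-0.74), Rpl37a (-0.52), Rpl10 and Rpl36a (-0.50). Calls were lost in 11 of the 18 alternatives for Rpl36a, 10 for Rpl15, 8 for Rpl37a and 8 for Rpl36, and in 6, 4, 4 and 5 of the 8 that left out a library (adjusted p up to 0.126 for Rpl36a). Rpl9 had 395, 573, 1285 and 1273 normalized counts in KO acute libraries, against 1587, 2492, 1899 and 2055 in WT acute libraries. Its KO libraries 1 and 2 were lower than libraries 3 and 4, yet all lay under the lowest WT library. Rpl3, which shapes the peptidyl transferase centre, had 1529, 1189, 1716 and 1924 in KO acute libraries, against 2452, 2867, 2593 and 2898 in WT acute libraries. The groups did not overlap (adjusted p = 0.00371). Rpl24 narrowly missed the threshold, at -0.61 with an adjusted p of 0.0554.

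**Figure D2:**
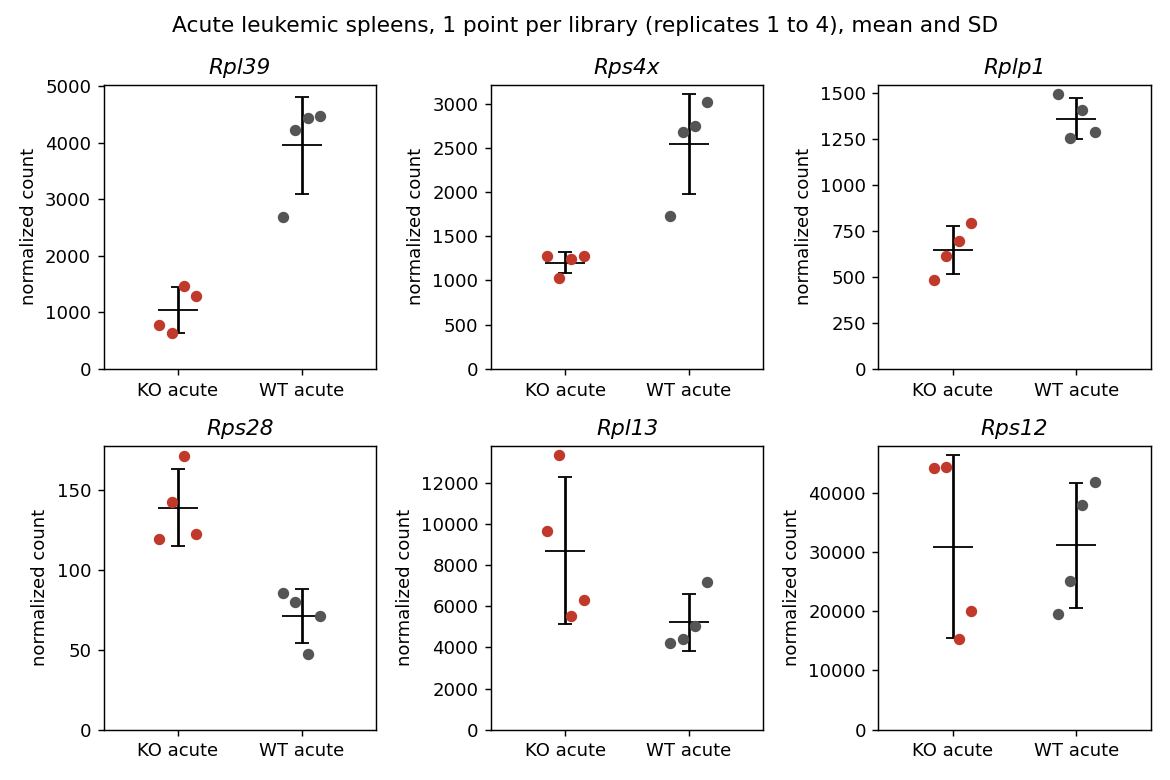
Normalized counts of 6 members in each acute library, KO acute left and WT acute right, with the mean and SD (n = 4 each). Rpl39, Rps4x and Rplp1 are lower and Rps28 higher in all KO libraries, while the KO libraries of Rpl13 and Rps12 split into a high and a low pair.

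In the small subunit 11 of 31 members fell and 1 rose, beside 8.07% lower and 4.58% higher over all genes tested. The head, which holds the messenger RNA exit and the transfer RNA contacts, had 5 of 14 members lower, among them Rps19 (-0.67), Rps27a (-0.48) and Rps25 (-0.43). Fold changes were negative for 12 of these 14 members (median -0.42). The Rps27a call was lost in 13 and the Rps25 call in 11 of the 18 alternatives, with adjusted p up to 0.121 and 0.0772 when a library was left out. Rps19, mutated in human Diamond-Blackfan anaemia, had 416, 331, 459 and 311 normalized counts in KO acute libraries, against 615, 597, 558 and 614 in WT acute libraries. The groups did not overlap (adjusted p = 0.0139).

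Rps28, a small protein of the head near the messenger RNA exit, was the only member called higher (1.3%, against 4.58% of all genes). It had 119, 142, 172 and 123 normalized counts in KO acute libraries, against 85.7, 79.8, 47.4 and 71.4 in WT acute libraries. All KO libraries lay above all WT libraries, and the log2 fold change was 0.98 (SE 0.26, adjusted p = 0.0266). The call was lost in 6 of the 18 alternatives, among them without WT acute replicate 3 (log2 fold change 0.80, adjusted p = 0.0715), without WT acute replicate 4 (0.99, 0.0624), without KO acute replicate 2 (0.96, 0.0537), without KO acute replicate 3 (0.87, 0.0728) and without both KO acute libraries 1 and 2 (1.05, 0.0804).

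In the body and platform of the small subunit 5 of 16 members fell: Rps23 (-1.23), Rps4x (-1.06), Rps15a (-0.98), Rps24 (-0.85) and Rpsa (-0.54). Fold changes were negative for 13 of these 16 members (median -0.32), and 8.07% of all genes tested were lower. Rps23, a decoding-centre protein, had 328, 146, 286 and 236 normalized counts in KO acute libraries, against 416, 617, 509.7 and 764 in WT acute libraries. Rps4x, encoded on chromosome X, had 1275, 1023, 1240 (replicate 3) and 1272 in KO acute libraries, against 1729, 2680 (replicate 2), 2750.0 and 3018 in WT acute libraries. In each gene the KO libraries lay under all WT libraries. Rpsa, the laminin receptor homologue, overlapped in a single pair of libraries, and its call was lost in 10 of the 18 alternatives, 5 of them left-out libraries (adjusted p up to 0.109). Rps6, the substrate of S6 kinase, and Rps14, lost in the human 5q deletion syndrome, did not pass, at -0.20 and -0.19. Rps27l, an Rps27 paralog induced by p53, was at a low level and fell with 30.5, 16.3, 24.6 and 39.1 in KO acute libraries, against 70.1, 59.1, 78.4 and 103.5 in WT acute libraries (log2 fold change -1.50, adjusted p = 0.0156). Its call was lost in 2 of the 18 alternatives (adjusted p up to 0.0690). Its main copy Rps27 was at 0.27 and did not pass.

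The acute counts were also read by snoRNA annotation. This grouping was made after the values had been seen, so it is a description and carries no test. Of the 22 members with a snoRNA in their own exons 2 fell, Rpl3 and Rpl10, and their median was -0.10. Of the 7 with intronic snoRNAs only, 3 fell (median -0.27), and of the 48 with none, 21 fell and 1 rose (median -0.44). Outside the rule, 23 tested genes with a snoRNA in their own exons held 6 lower and 2 higher (median -0.04), beside 0.03 over all genes. The ribosomal gene Rack1 was among these 23 and was called lower. Of all genes tested, 8.07% were lower and 4.58% higher. The 2 lower of 22 members were thus near the share of all genes.

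Sums per library were formed for the same groups. Members without an exonic snoRNA summed to 29647, 28856, 33874 and 35758 normalized counts in KO acute libraries, against 44280, 47206, 51082 and 54361 in WT acute libraries. All KO sums lay under all WT sums. Members with an exonic snoRNA summed to 93187, 95883, 46031 and 55521 in KO acute libraries, against 53057, 60971, 77777 and 92458 in WT acute libraries. These overlapped widely, and the KO libraries with the high mitochondrially encoded share, 1 and 2, were the high pair. What part the mitochondrial share has in this was not tested.

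**Figure D3:**
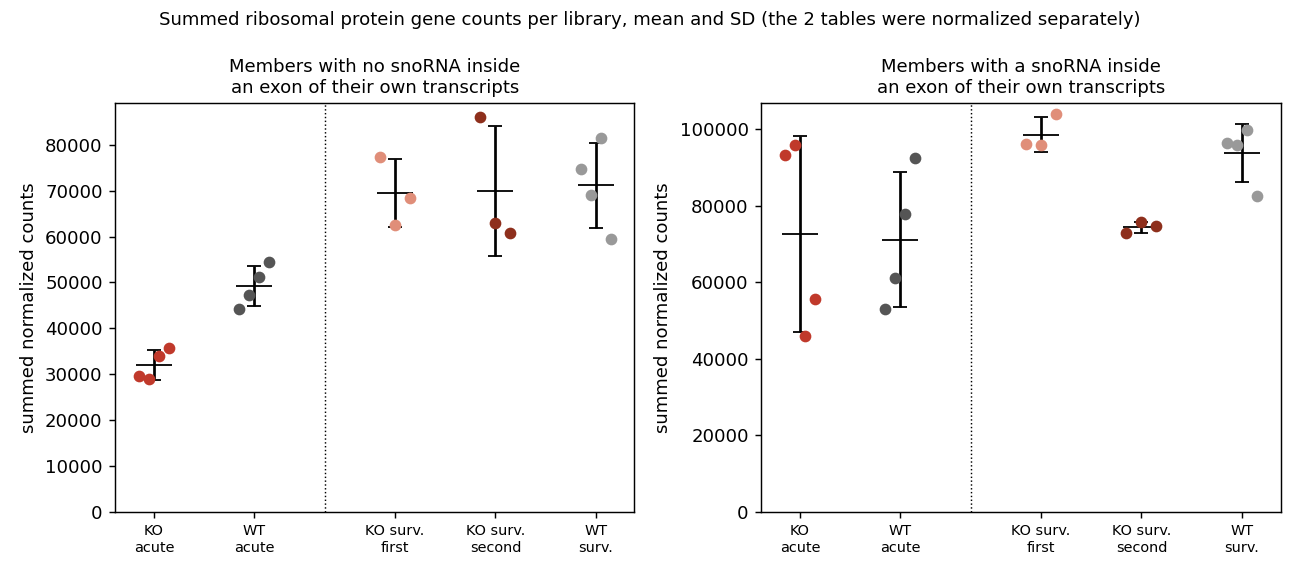
Summed normalized counts of members without (left) and with (right) a snoRNA inside their own exons, 1 point per library, with mean and SD; the acute and survival tables were normalized separately. On the left the KO acute sums, 28856 to 35758, lie under the WT acute sums, 44280 to 54361, and on the right they overlap. Library totals were also lower in KO acute than in WT acute libraries, and the sums are not scaled to them.

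Rps12, a 40S beak protein, had the highest value of all members, snoRNA sequence in its transcripts included. Per kilobase of transcript it averaged 53072 normalized counts over the acute libraries, with Rpl13 next at 8923. Lengths are those of 1 annotated transcript per gene, the longest where several ranked equally. That transcript need not be the one expressed. It had 44110.4, 44254, 15239 and 19971 normalized counts in KO acute libraries, against 19590.0, 25084, 37855 and 41849.8 in WT acute libraries. The range within either genotype was wider than the difference between the genotype means (log2 fold change -0.10, SE 0.32). Rps12 alone made up 10.9% to 35.9% of the member sum over the 18 libraries. Rpl13, a snoRNA host as well, had 9645, 13329, 5536 and 6322 in KO acute libraries, against 4206, 4419, 5033 and 7192 in WT acute libraries (log2 fold change 0.69, adjusted p = 0.0745). The share of all normalized counts taken by the members was 1.69%, 1.76%, 1.13% and 1.28% in KO acute libraries, against 1.27%, 1.39%, 1.67% and 1.83% in WT acute libraries, so the summed share did not separate the genotypes.

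Genes that share the TOP tract or build the ribosome were set beside the members. The shares over all genes tested were 8.07% lower and 4.58% higher. Of 19 other TOP genes, most of them translation factors, 9 fell and none rose (median -0.39), among them the initiation factor subunit Eif3e (-1.06), Tpt1 (-0.81), the splicing regulator Hnrnpa1 (-0.66), the nucleolar chaperone Npm1 (-0.41) and the elongation factor Eef2 (-0.39). The elongation factor Eef1a1 was at -0.34 and did not pass (adjusted p = 0.160). Of 25 ribosome assembly genes 1 fell, the RNA polymerase I factor Rrn3 (-0.60), and 1 rose, the Rpl3 chaperone Grwd1 (0.96), with a median of -0.07. Nop56, Fbl and Ncl were at 0.07, -0.09 and 0.36, none past the threshold. Of 11 regulators of TOP or ribosomal protein genes, Yy1 fell (-0.56), while Mtor (-0.26), Larp1 (-0.27), Myc (-0.12) and Gabpa (-0.30) did not pass. Counts called among the assembly genes and the regulators were near the shares over all genes. Among the 7 ribosomal genes named outside the rule, Rpl22l1, the paralog of Rpl22, fell (-1.16) and so did Rack1 (-0.42), while Rps3a1 was at 0.41 (adjusted p = 0.0679).

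Markers of the cell types in the spleen were summed over the same libraries. Thymocyte and T-ALL markers made up 0.749% to 1.10% of normalized counts in KO acute libraries, against 1.07% to 1.27% in WT acute libraries, with 5 of 15 lower and 1 higher. Neutrophil markers made up 0.0211% to 0.0647% in KO acute libraries, against 0.0100% to 0.0218% in WT acute libraries, with 2 of 10 higher, while B cell markers made up 0.00497% to 0.0154% in KO acute libraries, against 0.00341% to 0.00831% in WT acute libraries, with none of 7 called. Of 9 erythroid markers 1 was lower, at 0.0226% to 0.138% in KO acute libraries, against 0.0669% to 0.131% in WT acute libraries. Stroma and endothelium markers made up 0.0188% to 0.0205% in KO acute libraries, against 0.0125% to 0.0145% in WT acute libraries, without overlap, and of the 2 tested Pecam1 was higher (log2 fold change 0.54, adjusted p = 0.0144). Of 7 macrophage markers 6 were tested and none was called, at 0.00560% to 0.00868% in KO acute libraries, against 0.00521% to 0.00729% in WT acute libraries. Fold changes were negative for all 9 erythroid markers (median -0.92) and for 14 of 15 thymocyte and T-ALL markers (median -0.35). They were positive for all 10 neutrophil markers (median 0.77), the 7 tested B cell markers (median 1.02) and the 2 tested stroma and endothelium markers (median 0.32). Macrophage markers were split, 3 positive and 3 negative. What part these cell types have in the fall of the ribosomal protein genes was not tested.

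At endpoint no ribosomal protein gene passed the threshold in KO leukemias of either wave. In the first wave no member was called against WT survival, and neither was any other gene (0% of 14286). At an unadjusted limma p under 0.05 there were 4 members, 5.19% of the 77, against 8.02% of all genes. The median log2 fold change was 0.0084 over the members and 0.0062 over all genes. By moderated t the lowest were Rpl36a (-0.44), Rpl41 (-0.60), Rps7 (-0.34) and Rpl11 (-0.43), and the highest Rpl12 (0.79), Rpl27a (0.51), Rpl10a (0.85) and Rps23 (0.61). Rpl36a had 3356, 3213 and 3351 normalized counts in first wave libraries, against 4107, 4943, 4422 and 4458 in WT survival libraries, without overlap but with an adjusted p of 0.617.

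In the second wave, again, no member was called against WT survival, where 0.224% of all genes were. Unadjusted p under 0.05 held for 3 members, against 13.0% of all genes, and the groups did not overlap for 4 members, against 9.66%. The member median was -0.08 and that of all genes -0.01. The lowest by moderated t were Rps12, Rpl36a (-0.35), Rps15 (-0.50) and Rpl21 (-0.26), and the highest Rpl27a (0.67), Rpl39 (0.40), Rpl6 (0.33) and Rpl12 (0.51). Rpl27a had 1589, 1249 and 1213 normalized counts in second wave libraries, against 856, 681, 1093 and 791 in WT survival libraries, with no overlap (adjusted p = 0.240).

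Rps12 had the lowest fold change of all members in the second wave. It had 17369, 29708 and 24277 normalized counts in second wave libraries, 31492, 47332 and 52699 in first wave libraries, and 38273, 44084, 42530.1 and 38293 in WT survival libraries. All second wave libraries lay under all others. The log2 fold change against WT was -0.81 (SE 0.20, adjusted p = 0.127) and against the first wave -0.88 (SE 0.21, adjusted p = 0.200), neither past the threshold. Summed over members with an exonic snoRNA, second wave libraries had 72804, 75621 and 74769 normalized counts, first wave libraries 96042, 95792 and 103829, and WT survival libraries 96438, 95891, 99853 and 82580.0. The second wave sums were the lowest, below every other library. Without Rps12 the sums were 55435, 45913 and 50492 in second wave libraries and 58165, 51807, 57323 and 44287 in WT survival libraries, which overlapped.

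Between the waves no member was called, where 0.119% of all genes were. Unadjusted p under 0.05 held for 2 members, Rps12 and Rpl21 (-0.46), against 6.34% of all genes, and the groups did not overlap for 6 members, against 13.6%. After these the lowest by moderated t were Rpl7a (-0.32) and Rpl32 (-0.33), and the highest Rps2 (0.31), Rpl41 (0.48), Rpl6 (0.29) and Rpl34 (0.29). The member median was -0.05 and that of all genes -0.01.

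**Figure D4:**
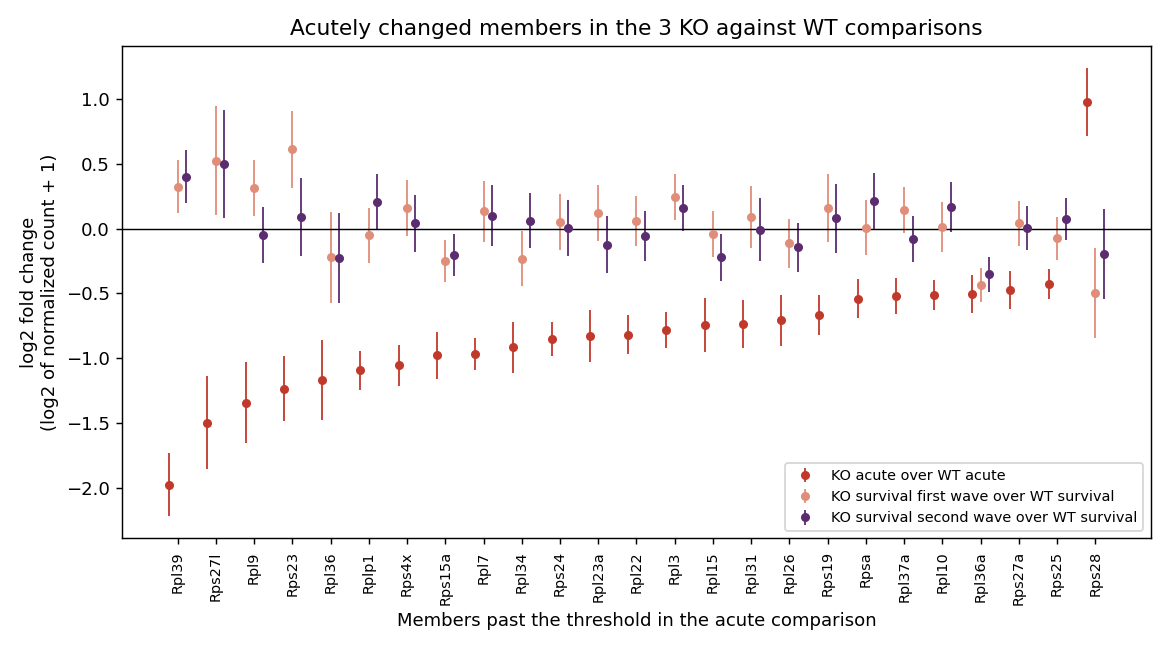
Log2 fold changes with standard errors of 25 of the 27 members called in the acute comparison, in KO acute over WT acute, KO survival first wave over WT survival and KO survival second wave over WT survival. The acute values run between -1.98 and 0.98, while the endpoint values lie between -0.50 and 0.61 and none passed the threshold.

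Members that fell in the acute comparison were set beside their endpoint values. Rpl39 had 5953, 6167 and 5643 normalized counts in first wave libraries, 6822, 6790.5 and 5258 in second wave libraries, and 6027, 4370 (replicate 2), 5950.0 and 3195 in WT survival libraries, with log2 fold changes of 0.32 and 0.40 against WT, neither called. Rplp1 was at -0.05 in the first wave and 0.21 in the second wave, and Rpl22 at 0.06 and -0.06. Rps28, higher in the acute comparison, had 123, 76.3 and 104 in first wave libraries, 176, 129.6 and 80.7 in second wave libraries, and 216, 129, 129 and 108 in WT survival libraries. The first and second wave comparisons share the WT survival libraries. Whether the acute and endpoint differences themselves differ was not tested, since the tables were normalized separately.

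Many ribosomal protein genes have processed copies in the genome, and 42 members had at least 1 row marked as a pseudogene in a table. These rows summed to 0.0470% to 0.0896% of normalized counts over the 18 libraries, against 1.13% to 1.83% for the members. Rpl39, Rpl9, Rps23 and Rps4x have 1 such row each, Rps12 has 5, and Rplp1, Rps28 and Rpl22 have none. Reads of Rpl39, Rpl9, Rps23, Rps4x and Rps12 could thus be divided between gene and copy. Only symbols marked -ps were counted. Copies under other names, such as the processed pseudogene Rps12l1, were left out. The sum is therefore a lower bound, and members without such a row could share reads too.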

How the data were processed

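RNA of 18 leukemic spleens (10 KO, 8 WT) was extracted after red cell lysis and sequenced from strand-specific libraries, per the labels' protocols. The authors deposited 2 tables of normalized signal per gene symbol, for which the submitters' processing notes name kallisto 0.44.0, DESeq and the build GRCm38. The deposited signal values are fractional and were normalized by DESeq, per the submitters' processing notes. The sources used here give neither the strand setting nor the annotation. Between 37.9% and 63.6% of values under 8 were whole multiples (within 0.02) of a single step, so whole reads were not recovered and no count test was run; the depth in reads is therefore not known exactly. Each table was fitted alone with limma 3.58.1 (R 4.3.3; lmFit, eBayes with trend) on log2(value + 1), over genes averaging at least 10, with Benjamini-Hochberg adjustment over all genes tested and a threshold of 0.05. The log2 scale with its pseudocount understates changes of low genes. The 10 survival libraries shared 1 fit. The script was tested on simulated data. The members and gene lists were chosen with earlier results of these data known. Members named are the 8 most extreme called in each direction (4 by moderated t where none was called) and a fixed set of stalk, 5S, T-ALL and disease genes; other called members are listed with their values. Annotation is GENCODE M21, matching 19491 of 19509 symbols, and promoters are from RefSeq. Alternatives covered pseudocount, filter, scaling, variance model, replicate block, transcript properties and left-out libraries. A few genes counted in the totals are not reported here by name.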

Additional observations from a re-analysis of the deposited data

Results flagged for a closer look

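The 107 groups of 4 libraries checked covered members named or called, and the member shares and sums per library. Chance flags about 1 group in 20 at Dixon's 95% critical value. In 9 groups a library's gap to its nearest neighbour, divided by the range of the group, exceeded that value. In KO acute libraries these were Rpl12 in replicate 1 (468 normalized counts, others 160.3 to 212), Rps15a in replicate 4 (913, others 517 to 574) and Rps4x in replicate 2 (1023, others 1240 to 1275). In WT acute libraries they were Rpl39 in replicate 1 (2680, others 4232 to 4476), Rps27a in replicate 1 (1343, others 1177 to 1203) and Rps6 in replicate 2 (459, others 750.5 to 809.7). In WT survival libraries they were Rpl22 in replicate 4 (1022, others 1490.2 to 1584), Rplp0 in replicate 3 (5409, others 3698 to 3960.0) and Rps6 in replicate 2 (879, others 1398 to 1414).

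Members called in the acute comparison were checked in each survival wave, as 54 pairs of gene and wave. For a pair to be listed, all KO acute libraries had to lie on one side of the WT mean of their table. All libraries of the wave had to lie on the other side of the WT mean of theirs. With few libraries in a wave, chance can give such pairs, and their expected number was not estimated. The rule was met by 9 pairs, from 7 members, and the difference was not tested. In the first wave these were Rpl3 (log2 fold change 0.24 against WT survival), Rpl31 (0.092), Rpl39 (0.32), Rpl9 (0.31), Rps23 (0.61) and Rps4x (0.16), all lower in the acute comparison, and Rps28 (-0.50), higher there. In the second wave they were Rpl3 (0.16) and Rpl39 (0.40). None of these endpoint values passed the threshold.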

How the results depend on the processing

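No called value changed sign under any alternative tried. The 27 members called in the acute comparison became 12 without a variance trend, 13 (all lower) without KO acute libraries 1 and 2, and 17 to 26 when leaving out a single library, the lowest without WT acute replicate 4. Equal scaling of the other genes and quantile normalization each gave 22 (3 higher, 19 lower). The trend correction gave 18, of which 14 were among the 27. The acute member median was -0.18 under equal scaling, which moved the median of all genes to 0.16, -0.049 under the trend correction, and -0.43 over members with no exonic snoRNA, a choice made after seeing the data. Rpl39, Rplp1, Rps4x, Rpl22, Rpl3, Rpl7, Rps15a and Rps24 were among those that stayed called under every alternative run. The replicate numbers did not pair the libraries (no correlation of same-numbered deviations above 0.0946). With the replicate block 22 acute members were called, and in the second wave 1, Rps12 (log2 fold change -0.84, adjusted p = 0.0485). Acly in the first wave, not past the threshold in the reported fit (adjusted p = 0.0562), passed it with a pseudocount of 10 (-1.21), no filter (-1.22), quantile normalization (-1.22), equal scaling (-1.23), robust variances (-1.22) and the trend correction (-1.22); leaving out single libraries gave -1.29 to -1.15, with 9 of 10 not past (adjusted p up to 0.595). The count test was not run, as whole reads could not be recovered.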
